A study of Mus musculus with 9 samples.

Results

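The gene set described here holds the antioxidant and NADPH genes linked to the transcription factor NRF2, measured in 4T1 cells grown as 3D spheroids or as 2D monolayers. It was given as a list of 36 gene symbols, chosen by function and with no threshold on any value, out of the 24421 genes of the count table. The list names 3 regulators of the pathway, 7 quinone, haem and xenobiotic enzymes, 4 genes of glutathione synthesis and reduction, 5 glutathione transferases, 5 genes of superoxide and peroxide removal, 5 of the thioredoxin and peroxiredoxin system, 5 of NADPH production and 2 exporters of conjugates. All 36 symbols were present in the table. The list was drawn up with earlier results of both comparisons known. The counts of genes past the threshold and the adjusted p-values below therefore describe these 9 libraries, and nothing is read from how the list compares with other genes.

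4T1 is a mouse mammary carcinoma line that is negative for oestrogen receptor, progesterone receptor and HER2 and that metastasises in BALB/c mice. Messenger RNA was sequenced after 5 days of culture in 3 groups of 3 libraries. One group was grown as spheroids on soft agar with 75 µM palmitate added to the medium (3D with palmitate), one as spheroids without the extra palmitate (3D without palmitate), and one as attached monolayers with 75 µM palmitate (2D with palmitate). Palmitate was delivered bound to albumin, the cultures without it received the same albumin with ethanol, and all media contained serum, so that "without" means no extra palmitate. A monolayer without palmitate was not analysed here, so an effect of palmitate in 2D could not be estimated. The comparison of 3D with 2D asks what differs with growth as spheroids when palmitate is present, and the comparison within 3D asks what differs with palmitate. Both use the same 3 libraries of 3D with palmitate.

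NRF2, encoded by Nfe2l2, is a transcription factor that is normally held by KEAP1 and marked for destruction by a ubiquitin ligase. When reactive compounds modify KEAP1, or when the autophagy receptor p62 (Sqstm1) competes for it, NRF2 accumulates, pairs with small MAF proteins and binds antioxidant response elements near its target genes. Those targets make glutathione, attach it to reactive compounds, reduce peroxides through the thioredoxin and peroxiredoxin proteins, and supply the NADPH that both systems consume. In tumour cells the pathway is known for protecting against oxidants and drugs, and much of its control acts on NRF2 protein, which RNA sequencing does not measure.

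To show the DNA next to the members, the letters TGACNNNGC, the core of the antioxidant response element, were searched on both strands in the RefSeq promoter windows of GRCm38.p6, from 250 bases before to 50 bases after each annotated start. The table held windows for 30 of the 36 members. Hmox1, Gclc, Gsr, Prdx6, Gsta4 and Abcc1 have no entry there. A match was present for 12 of the 30 genes, in 13 of their 40 windows (32.5%), and in 12.4% of all 32851 promoter windows. The following stretches of 29 bases are examples at members whose levels are described below. Matches at Gclm, G6pdx, Sod1 and Ugdh are not shown. For Abcc4, the match shown lies at an annotated start inside the gene. Another, by its outer start (chr14:118706226-118706254), is not shown. Each is written 5′ to 3′ on the strand of the match, with the match in capitals.
Mgst1 (chr6:138140461-138140489, minus strand): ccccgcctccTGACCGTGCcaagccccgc
Srxn1 (chr2:152105542-152105570, minus strand): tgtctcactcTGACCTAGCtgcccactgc
Nfe2l2 (chr2:75704885-75704913, minus strand): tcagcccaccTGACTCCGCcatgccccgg
Abcc4 (chr14:118676936-118676964, minus strand): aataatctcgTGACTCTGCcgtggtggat
Txnrd1 (chr10:82859104-82859132, minus strand): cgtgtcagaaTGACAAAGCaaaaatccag
Pgd (chr4:149166061-149166089, minus strand): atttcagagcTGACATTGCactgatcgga
Me1 (chr9:86695902-86695930, minus strand): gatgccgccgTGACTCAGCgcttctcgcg
Prdx1 (chr4:116685456-116685484, minus strand): ctacgggggaTGACTCAGCgctttccctg
In Me1 and Prdx1 the match also contains TGACTCA, the letters bound by AP-1 factors. These are matches of letters and not measured binding sites. In the comparison of 3D with 2D, members with a match had a median log2 fold change of 0.68 (9 higher and 1 lower of 12), and members without one a median of 0.74 (11 higher and 4 lower of 17 tested). The ranges overlapped, from -0.15 to 2.84 with a match and from -0.88 to 3.48 without one. Nqo1, the member with the largest log2 fold change, had no match in its window. Sequence outside the windows was not searched. Members without a match may thus have an element elsewhere, and nothing is read from this split.

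The libraries held between 6595514 and 31177756 counted reads, the fewest in replicate 3 of 3D with palmitate. The 3 libraries of 3D with palmitate differed more from each other (chi-square per gene of 16.4 to 19.7) than those of the other groups (3.90 to 9.30), so results that rest on the shallow library are given with and without it. Nothing in the labels says that replicates were separate cultures, and p-values then measure only the spread between these libraries. Levels are CPM, the counts scaled to a common library size by the TMM method, and levels of different genes are compared only per kilobase of exon. Of the markers of a mammary epithelial line, all 6 were detected in every library (summed level 3826 to 5092 CPM over the 2 groups with palmitate), 4 being higher and 1 lower in 3D than in 2D. In the same order, fibroblast markers summed to 93.4 to 111 CPM in 3D and 31.7 to 33.7 CPM in 2D with palmitate, nearly all from Pdgfra, with Lum at 0 in every library and Pdgfrb at 0 in 3D with palmitate. Leukocyte markers summed to 8.42 to 11.4 and 24.4 to 27.8 CPM, nearly all from Cd68, with Adgre1 and Cd3e at 0 in every library, and the endothelial sum never exceeded 0.579 CPM. In 3D against 2D with palmitate, Pdgfra was called higher (log2 fold change 1.69) and Cd68 lower (-1.39). Col1a1, of the fibroblast list, was also called lower (-1.06), at mean levels of 0.845 against 2.18 CPM. The part of Pdgfra- or Cd68-expressing cells in the results was not tested. In such bulk libraries, fewer cells that express a gene and less RNA per cell cannot be told apart.

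In 3D spheroids, most of the listed genes were higher than in 2D monolayers, both with palmitate. Of the 35 members that passed the filter on low counts, 24 were higher and 6 lower in 3D at an adjusted p under 0.05 by edgeR's quasi-likelihood test (85.7% called), while 68.3% of all 12575 genes tested were called, 34.5% higher and 33.9% lower. The median log2 fold change was 0.74 over the members and 0.01 over all genes tested. Of the members, 8 were called with a log2 fold change of at least 1, each higher in 3D, and 15.7% of all genes were called with an absolute change of that size. The 8 were Nqo1, Gsta4, Mgst1, Gpx2, Srxn1, Ephx1, Gstm1 and Nfe2l2 itself. The groups did not overlap for 24 members higher and 8 lower in 3D, as for 34.6% and 34.8% of all genes (69.4% together). Leaving out the shallow library also gave 30 called members, with 69.3% of all genes called. Cbr3, a carbonyl reductase, had between 1 and 14 counts per library and was not tested.

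**Figure D1:**
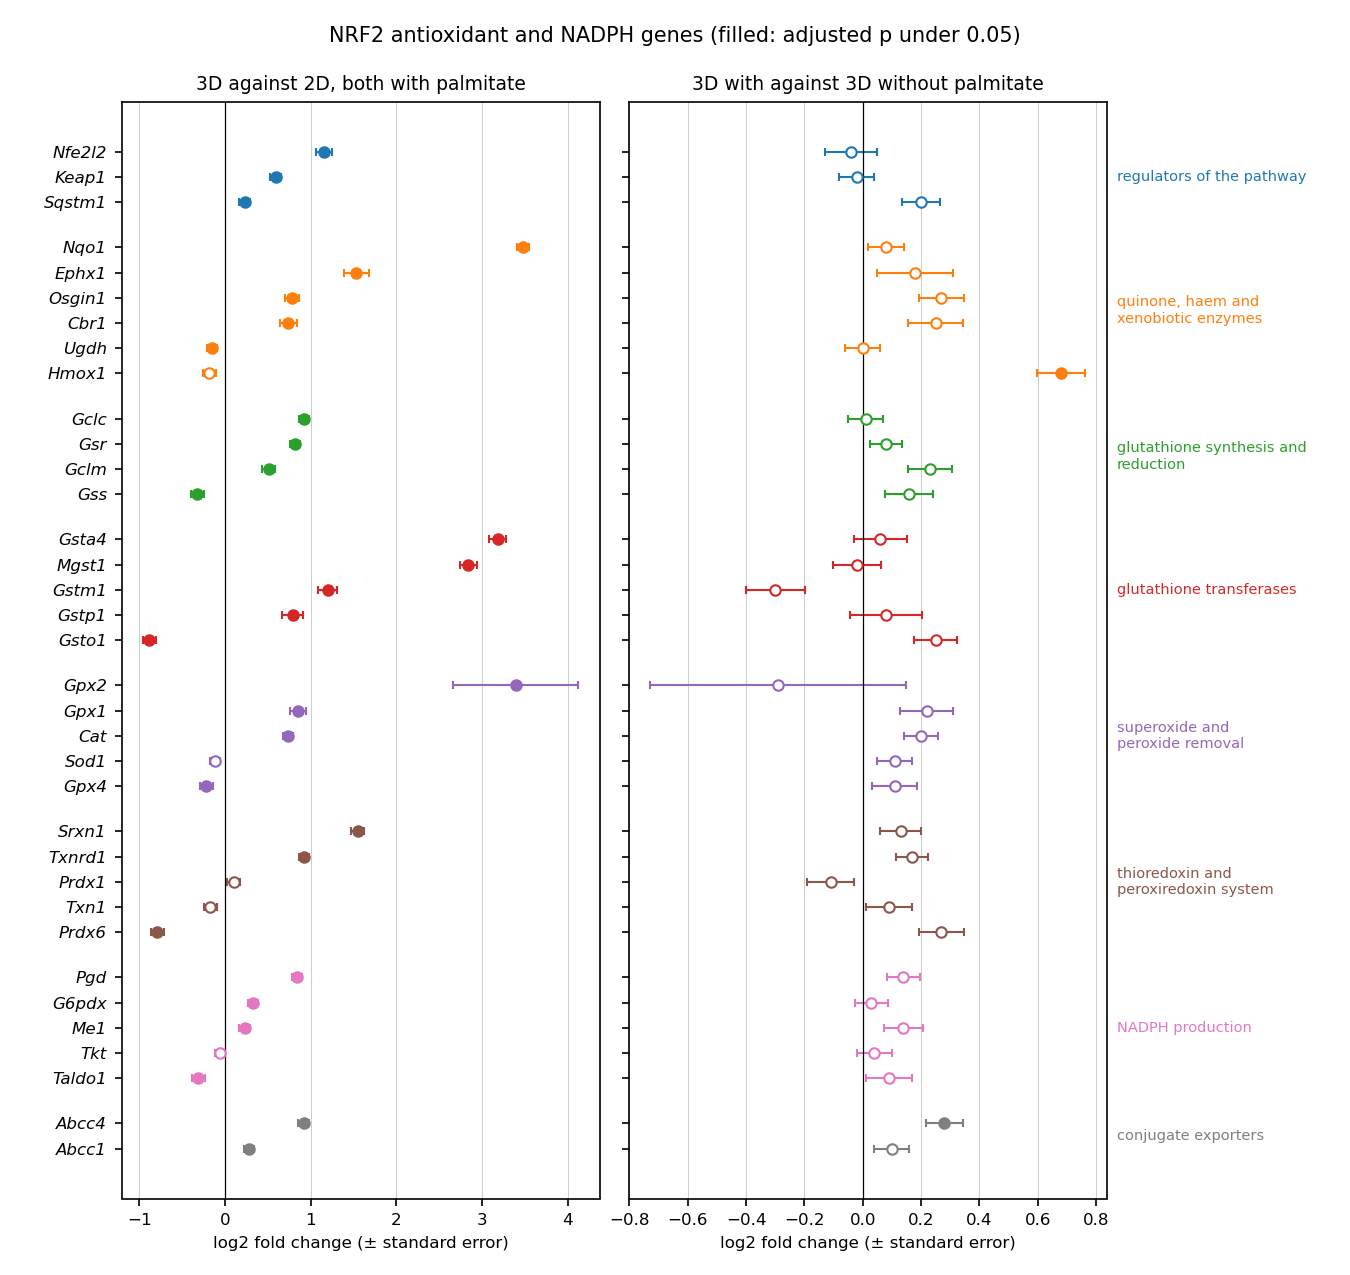
Log2 fold change of the 35 tested members in 3D against 2D with palmitate (left) and in 3D with against without palmitate (right), grouped by role; bars are standard errors from the edgeR fit on 9 libraries, filled points have an adjusted p under 0.05, and the 2 panels have different scales. The left panel spans -0.88 (Gsto1) to 3.48 (Nqo1) with 30 filled points, and the right panel spans -0.30 (Gstm1) to 0.68 (Hmox1) with 2 filled points.

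Both the factor and its inhibitor were higher in 3D. Nfe2l2 (chr2:75675513-75704641) stood at 215, 230.3 and 290.2 CPM in 3D with palmitate and at 110.5, 111 and 106 CPM in 2D, with 243, 244 and 264 CPM in 3D without palmitate. Every spheroid library lay above every monolayer library, and the log2 fold change with palmitate was 1.16 (SE 0.0927, adjusted p = 5.56e-08). Keap1 (chr9:21229730-21239361), the sensor that holds NRF2, stood at 139, 132 and 128 CPM against 90.5, 84.4 and 90.9 CPM. The groups did not overlap, and the log2 fold change was 0.59 (SE 0.0608, adjusted p = 7.55e-07). Sqstm1 (chr11:50199366-50210827), which encodes the p62 competitor for KEAP1, was at 886, 858 and 816 CPM against 731, 710.2 and 744 CPM, with a log2 fold change of 0.23 (SE 0.0652, adjusted p = 0.00605). In 3D without palmitate, Sqstm1 ranged from 698 to 809.7 CPM and overlapped the monolayers. Per kilobase, the ratio of Nfe2l2 to Keap1 was 2.29 ± 0.458 (SD, n = 3) in 3D with palmitate, 2.29 ± 0.120 (SD, n = 3) in 3D without, and 1.53 ± 0.0947 (SD, n = 3) in 2D. Other genes shared part of the sequence of 2 regulators, since Mrnip overlaps 17.3% of Sqstm1 exon bases and Gm16754 10.9% of those of Keap1, on the opposite strand, and the strand setting of the counting is not given in the sources used here.

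Among the quinone, haem and xenobiotic enzymes, 4 of 6 tested members were higher and 1 lower (all genes tested: 34.5% higher, 33.9% lower). Nqo1 (chr8:107388225-107403206), the quinone reductase that is the classical readout of NRF2 activity, stood at 259, 256 and 228 CPM in 3D with palmitate and at 22.3, 21.8 and 22.4 CPM in 2D. This was an 11.2-fold difference (log2 fold change 3.48, SE 0.0714, adjusted p = 1.04e-13), and 3D without palmitate held 238, 232 and 234 CPM. Nqo1 is also a target of the aryl hydrocarbon receptor. Of 7 genes listed for that receptor, Nqo1 included, all 7 were called higher in 3D than in 2D, as were 34.5% of all genes tested. Their summed level, Nqo1 included, was 1489 to 1584 CPM in 3D with palmitate and 201 to 214 CPM in 2D. The list was chosen with earlier results known, and Ahrr and Cyp1a1 passed the filter on low counts only through the spheroid libraries, where they are higher. The part of that receptor in the Nqo1 difference was not tested. Ephx1 (chr1:180976210-181020904), the microsomal epoxide hydrolase, was expressed at a low level, with 7.58, 8.36 and 7.66 CPM in 3D and 2.32, 2.79 and 2.90 CPM in 2D. Its log2 fold change was 1.53 (SE 0.146, adjusted p = 3.65e-07), and the groups did not overlap.

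Osgin1, a growth inhibitor induced by oxidative stress, and Cbr1, a carbonyl reductase, were also higher, with log2 fold changes of 0.78 and 0.74. Ugdh, which makes UDP-glucuronic acid for conjugation, was called lower at -0.15, but its adjusted p of 0.0413 by edgeR rose above 0.05 in 10 of 17 alternative settings, and it stood at -0.28 after removal of the trend with GC content and length. Hmox1, which opens the haem ring and yields biliverdin, iron and carbon monoxide, did not share the pattern of Nqo1. It stood at 43.2, 42.0 and 35.8 CPM in 3D with palmitate and at 46.9, 44.7 and 47.5 CPM in 2D. The 3D libraries lay below the 2D libraries without overlap, and the log2 fold change of -0.18 did not pass the threshold (SE 0.0798, adjusted p = 0.0580). It was called in 4 of 17 alternative settings and stood at -0.01 after removal of the trend with GC content and length. Per kilobase, Nqo1 exceeded Hmox1 by a ratio of 6.93 ± 0.208 (SD, n = 3) in 3D with palmitate, while the ratio was 0.539 ± 0.00996 (SD, n = 3) in 2D. The order of these targets was thus opposite in spheroids and monolayers.

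**Figure D2:**
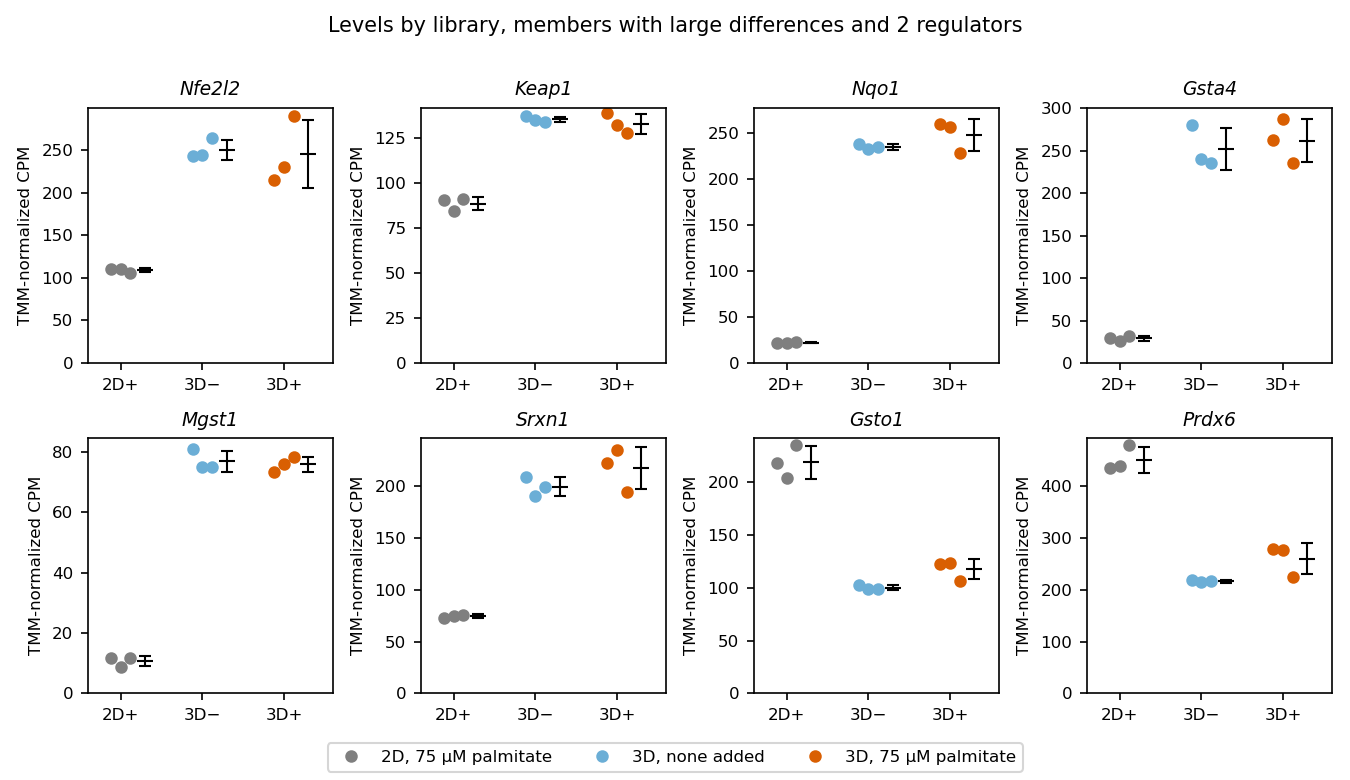
TMM-normalized CPM per library of Nfe2l2, Keap1 and 6 targets in 2D with 75 µM palmitate (2D+), 3D without (3D−) and 3D with 75 µM palmitate (3D+), all axes starting at 0; points are libraries, and bars give the mean ± SD of 3 libraries. For Nfe2l2, Keap1, Nqo1, Gsta4, Mgst1 and Srxn1 all 6 spheroid libraries lie above the 3 monolayer libraries, and for Gsto1 and Prdx6 all 6 lie below.

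Of the genes of glutathione synthesis and reduction, 3 of 4 were higher and 1 was lower (all genes tested: 34.5% higher, 33.9% lower). Gclc, the catalytic subunit of glutamate-cysteine ligase and the rate-limiting step of synthesis, stood at 161, 155 and 169 CPM in 3D with palmitate and 85.4, 86.6 and 83.6 CPM in 2D (log2 fold change 0.92). Its modifier subunit Gclm was higher by 0.51, and Gsr, the NADPH-dependent glutathione reductase, by 0.82 on the log2 scale. Gss, which carries out the last step of synthesis, was lower, at 22.6 ± 1.58 CPM against 28.7 ± 1.34 CPM (SD, n = 3, log2 fold change -0.32, adjusted p = 0.00255). The first step of synthesis was thus higher and the last step lower. The ratio of catalytic to modifier subunit RNA per kilobase was 1.87 ± 0.176 (SD, n = 3) in 3D with palmitate and 1.39 ± 0.0581 (SD, n = 3) in 2D. Acss2 overlaps 6.68% of Gss exon bases on the opposite strand.

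The glutathione transferases, which attach glutathione to reactive compounds, held the widest range of any role. Of the 5, 4 were higher and 1 lower (all genes tested: 34.5% higher, 33.9% lower). Gsta4 (chr9:78182774-78209349), the transferase that acts on the lipid peroxidation product 4-hydroxynonenal, stood at 263, 287 and 236 CPM in 3D with palmitate and at 29.3, 26.0 and 32.2 CPM in 2D. This was a 9.03-fold difference (log2 fold change 3.18, SE 0.103, adjusted p = 3.55e-12), with 280.0, 240.4 and 236 CPM in 3D without palmitate. Mgst1 (chr6:138140316-138156755), a membrane-bound transferase that also reduces lipid peroxides, stood at 73.5, 76.0 and 78.3 CPM against 11.9, 8.91 and 11.6 CPM. The spheroid libraries were all above 70 CPM and the monolayers all under 12 CPM (log2 fold change 2.84, SE 0.0965, adjusted p = 6.24e-12). Gstm1 (chr3:108012255-108017973), a cytosolic transferase of the mu class, stood at 15.2, 14.7 and 15.0 CPM against 5.62, 6.70 and 6.95 CPM, a log2 fold change of 1.20 (SE 0.112, adjusted p = 2.72e-07). Gstp1, of the pi class, was higher by 0.79. Of the 50-base stretches of their exons, 23.1% in Gstm1 and 62.3% in Gstp1 occur in another gene as well, so part of their reads may not have been counted or may belong to a relative.

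Gsto1, an omega-class transferase that works mainly as a thiol transferase and dehydroascorbate reductase, went the other way. It stood at 123, 124 and 107 CPM in 3D with palmitate and at 218, 204 and 235 CPM in 2D, 1.84-fold lower in 3D (log2 fold change -0.88, adjusted p = 7.58e-08). The make-up of the 5 transferases differed between the cultures. Per kilobase, Gsta4 held 60.0 ± 0.957% (SD, n = 3) of their summed level in 3D with palmitate, 60.3 ± 0.876% in 3D without, and 14.4 ± 0.605% in 2D. Gsto1 held 17.0 ± 0.418%, 15.1 ± 0.836% and 67.8 ± 0.367% in the same order (SD, n = 3). The summed level of the 5 was 344 ± 30.4 CPM per kilobase in 3D with palmitate and 159.7 ± 10.3 in 2D (SD, n = 3).

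**Figure D3:**
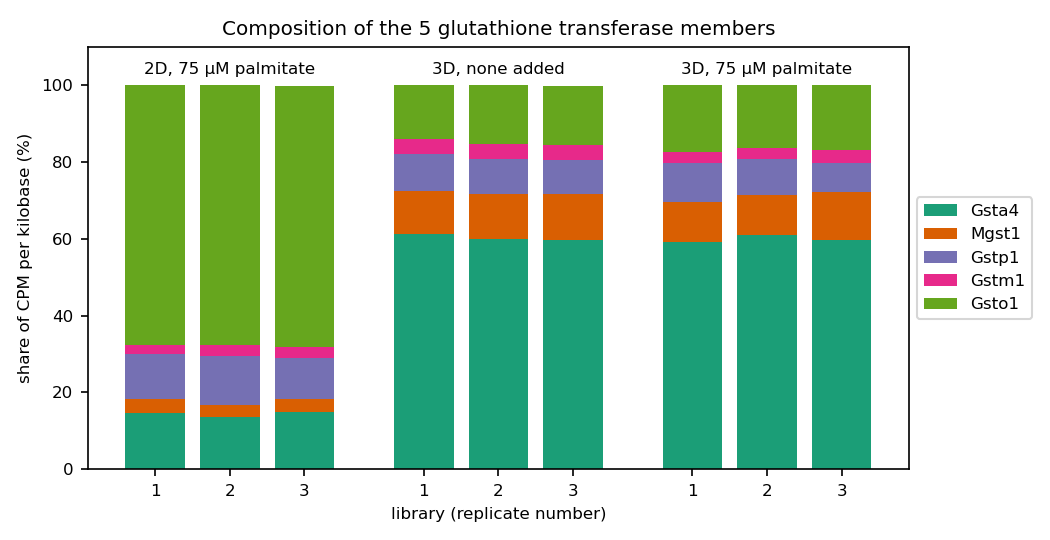
Share of each transferase in the summed CPM per kilobase of the 5 glutathione transferase members, in percent, for each of the 9 libraries. Gsto1 fills 67.6% to 68.2% of the 3 monolayer bars, while Gsta4 fills 59.2% to 61.3% of the 6 spheroid bars.

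Of the enzymes that remove superoxide and peroxides, 3 of 5 were higher and 1 lower (all genes tested: 34.5% higher, 33.9% lower). Gpx1, the abundant cytosolic glutathione peroxidase, stood at 340.5, 306 and 252 CPM in 3D with palmitate and 164, 159 and 177 CPM in 2D (log2 fold change 0.85). Cat, the peroxisomal catalase, was higher by 0.74, at 156, 158 and 162 CPM against 94.6, 96.9 and 92.3 CPM. For both enzymes the groups were apart, and the catalase libraries varied little within a group. Gpx4, which reduces phospholipid hydroperoxides in membranes, was lower by a small amount, at 76.3, 72.2 and 67.8 CPM against 89.7, 80.0 and 85.0 CPM (log2 fold change -0.22, adjusted p = 0.0171). Its call was lost after removal of the trend with GC content and length (-0.05) and without replicate 1 of 2D with palmitate (-0.19), and 61.7% of its 50-base stretches also occur in another gene. Sod1, the cytosolic superoxide dismutase, had a log2 fold change of -0.12 that did not pass the threshold (adjusted p = 0.0927).

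Gpx2 (chr12:76792333-76795554), a glutathione peroxidase of epithelia and a known NRF2 target, was nearly absent. It had 20, 4 and 2 counts in 3D with palmitate, 19, 6 and 12 in 3D without, and 0, 1 and 2 in 2D, or 0.736, 0.304 and 0.306 CPM against 0.00, 0.0320 and 0.0891 CPM. It passed the filter only through the spheroid libraries, where it is higher, and the fitted log2 fold change was 3.39 (SE 0.730, adjusted p = 8.07e-04). Pooled over the libraries the ratio was 12.1, with an exact 95% counting interval of 3.71 to 62.5 that leaves out the spread between replicates.

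Of the listed thioredoxin and peroxiredoxin genes, 2 of 5 were higher in 3D and 1 was lower (all genes tested: 34.5% higher, 33.9% lower). Srxn1 (chr2:152105516-152111376), the sulfiredoxin that repairs over-oxidised peroxiredoxins, stood at 223, 235 and 195 CPM in 3D with palmitate and at 72.5, 75.2 and 76.0 CPM in 2D. The groups were far apart (log2 fold change 1.55, SE 0.0738, adjusted p = 2.49e-10), and 3D without palmitate held 209, 190.5 and 199 CPM. Txnrd1, the cytosolic thioredoxin reductase that draws on NADPH, stood at 530.4, 546 and 542 CPM against 284, 297 and 276 CPM (log2 fold change 0.92). Its substrate Txn1 stood at 534, 519 and 443 CPM against 550.5, 524 and 613 CPM, and the log2 fold change of -0.17 was not called (adjusted p = 0.0656) in the reported fit. It was called lower in 3 of 17 alternative settings and called higher, at 0.16, once the trend with GC content and length was removed. Prdx1, a peroxiredoxin that thioredoxin recharges, was not called either (0.10, adjusted p = 0.267), but was called higher at 0.20 with that trend removed and at 0.19 without replicate 1 of 3D with palmitate. Prdx6, a peroxiredoxin that uses glutathione and reduces phospholipid peroxides, was lower, at 278, 277 and 225 CPM against 435, 438 and 479 CPM (log2 fold change -0.79, adjusted p = 5.00e-07). Per kilobase, the level of Txnrd1 relative to Txn1 was 0.162 ± 0.0178 in 3D with palmitate and 0.0758 ± 0.00868 in 2D (SD, n = 3).

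Members that feed NADPH production were also unequal. Pgd, the second dehydrogenase of the pentose phosphate pathway and itself a source of NADPH, stood at 472, 476 and 444 CPM in 3D with palmitate and 258, 262 and 259.9 CPM in 2D (log2 fold change 0.84). G6pdx, the first dehydrogenase, was higher by 0.33, and Me1, the cytosolic malic enzyme, by 0.23. In contrast, Taldo1, a transaldolase of the non-oxidative branch, was lower (log2 fold change -0.31, adjusted p = 0.00296), and the transketolase Tkt did not pass the threshold (-0.06, adjusted p = 0.354). With the trend of GC content and length removed, Taldo1 stood at -0.17 and Tkt was called lower at -0.27. The dehydrogenases were thus higher, and neither member of the non-oxidative branch was called higher. Per kilobase, G6pdx and Pgd together amounted to 0.924 ± 0.0548 of Taldo1 and Tkt together in 3D with palmitate, to 0.901 ± 0.0128 in 3D without, and to 0.547 ± 0.0279 in 2D (SD, n = 3). Ikbkg overlaps 13.6% of G6pdx exon bases on the opposite strand, and 32.8% of the 50-base stretches of Me1 occur in another gene.

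Both exporters of glutathione conjugates were higher. Abcc4 (chr14:118482692-118706219) stood at 100.1, 102 and 105 CPM in 3D with palmitate and at 54.6, 56.8 and 51.2 CPM in 2D, a log2 fold change of 0.92 (SE 0.0656, adjusted p = 1.74e-08). Abcc1 was higher by 0.28, but the sign turned to -0.08 once the trend with GC content and length was removed. All members together took 0.707% to 0.755% of the counts in 3D with palmitate, 0.677% to 0.723% in 3D without and 0.569% to 0.599% in 2D.

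In spheroids, few of these genes were called with palmitate in the reported fit, and that number changed with the setting, as described below. In 3D with against without palmitate, 2 of 35 tested members were higher and none was lower at an adjusted p under 0.05 by edgeR (5.71% called), and 2.19% of all genes tested were called, 1.38% higher and 0.811% lower. The 2 were Hmox1 and Abcc4. DESeq2 called 4 members higher and 0 lower, and it called 2.13% of all 18522 genes it was run on. At an unadjusted p under 0.05 by edgeR, 13 of the 35 members passed, against 17.3% of all genes. The log2 fold change was above 0 in 29 members and below 0 in 6, with a median of 0.11 against 0.01 over all genes tested. Without overlap of the groups, 12 of the 35 members lay above and 1 below, against 10.4% and 8.19% of all genes (18.6% together).

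Hmox1 (chr8:75093621-75100589) was the member with the largest difference. It stood at 43.2, 42.0 and 35.8 CPM with palmitate and at 26.6, 23.3 and 26.4 CPM without. The groups did not overlap, and the level was 1.61-fold higher (log2 fold change 0.68, SE 0.0833, 95% interval 0.51 to 0.86, adjusted p = 0.000918). It remained called in all 17 alternative settings, with log2 fold changes from 0.61 to 0.74. In the spheroids without palmitate Hmox1 was thus at its lowest, and the monolayers with palmitate held the highest levels of the 3 groups.

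Abcc4, an exporter of conjugates and cyclic nucleotides, stood at 100.1, 102 and 105 CPM with palmitate and at 87.7, 79.6 and 85.1 CPM without (log2 fold change 0.28, SE 0.0644, adjusted p = 0.0390). The groups did not overlap, but the call was lost in 10 of the 17 alternative settings. Osgin1 (chr8:119434124-119446256), next by p, stood at 52.1, 48.9 and 42.3 CPM against 40.8, 38.8 and 40.5 CPM, and its log2 fold change of 0.27 did not pass the threshold (SE 0.0776, adjusted p = 0.0860). Its libraries with palmitate lay above those without, the shallow library nearest to them.

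**Figure D4:**
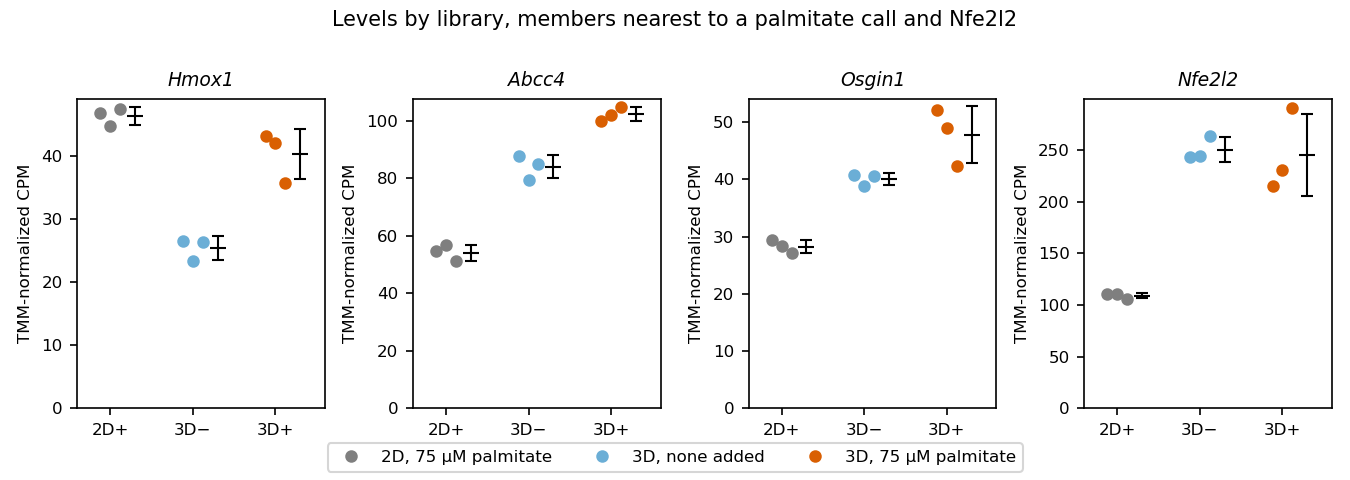
TMM-normalized CPM per library of Hmox1, Abcc4, Osgin1 and Nfe2l2 in 2D with 75 µM palmitate (2D+), 3D without (3D−) and 3D with 75 µM palmitate (3D+), with axes starting at 0; points are libraries and bars the mean ± SD of 3 libraries. Hmox1, Abcc4 and Osgin1 are higher in every 3D+ library than in every 3D− library, while for Nfe2l2 the 3D+ libraries (215 to 290.2 CPM) span the 3D− range.

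None of the 3 regulators passed the threshold with palmitate in the reported fit on all libraries. Nfe2l2 stood at 215, 230.3 and 290.2 CPM with palmitate against 243, 244 and 264 CPM without, a log2 fold change of -0.04 (SE 0.0906, 95% interval -0.23 to 0.16, adjusted p = 0.882). Its highest library was the shallow one, without which the log2 fold change was -0.17 (adjusted p = 0.0576). Keap1 had a log2 fold change of -0.02 (SE 0.0601, adjusted p = 0.907), and Sqstm1 one of 0.20 (SE 0.0652, adjusted p = 0.131), with 886, 858 and 816 CPM above 809.7, 698 and 723 CPM. Sqstm1 was called higher without the shallow library (0.23, adjusted p = 0.0188) and with the trend of GC content and length removed (0.19, adjusted p = 0.0415).

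Members with the largest differences between 3D and 2D were not called with palmitate in the reported fit on all libraries. The log2 fold change was 0.08 for Nqo1 (95% interval -0.05 to 0.21), 0.06 for Gsta4 (-0.14 to 0.25), -0.02 for Mgst1 (-0.20 to 0.15) and 0.13 for Srxn1 (-0.02 to 0.28). These intervals leave out differences as large as that of Hmox1. Srxn1 was called higher without the shallow library (0.20, adjusted p = 0.0310). For Ephx1 the log2 fold change was 0.18 (95% interval -0.10 to 0.46), and Gpx2, at -0.29 (-1.23 to 0.64), was too sparse to tell. Gstm1 was the one member whose libraries with palmitate all lay below those without, and its log2 fold change of -0.30 did not pass the threshold (adjusted p = 0.148).

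Of the other members, several leaned upwards without passing the threshold in the reported fit. Among the glutathione genes, Gclm stood at 0.23, Gss at 0.16, Gsr at 0.08 and Gclc at 0.01 on the log2 fold change scale. In the thioredoxin system, Prdx6 stood at 0.27, Txnrd1 at 0.17, Txn1 at 0.09 and Prdx1 at -0.11. Peroxide removal gave 0.22 for Gpx1, 0.20 for Cat, and 0.11 each for Gpx4 and Sod1. The remaining transferases were at 0.25 for Gsto1 and 0.08 for Gstp1, and the NADPH genes at 0.14 for Me1 and Pgd, 0.09 for Taldo1, 0.04 for Tkt and 0.03 for G6pdx. Cbr1 stood at 0.25, Abcc1 at 0.10 and Ugdh at 0.00.

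The number of members called with palmitate changed with the shallow library and with the trend of GC content and length. Without that library, 15 members were called, 14 higher and 1 lower, while the share of all genes called rose to 14.9%. The 14 included Prdx6 (log2 fold change 0.36, adjusted p = 8.28e-04), Gpx1 (0.32, adjusted p = 0.00377), Osgin1 (0.34, adjusted p = 0.00422) and Gsto1 (0.31, adjusted p = 0.00537), and the one called lower was Prdx1 (-0.20, adjusted p = 0.0499). In the shallow library Prdx6, Gpx1 and Gsto1 stood at 225, 252 and 107 CPM, nearer to the spheroids without palmitate than in the other replicates. Removal of the trend with GC content and length gave 12 called members, 11 higher and 1 lower (Gstm1, -0.36), with 7.86% of all genes called.

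A further 96 genes of the same routes were listed, of which 95 were in the table and 81 were tested. In 3D against 2D with palmitate, 32 were higher and 33 lower (80.2% called, against 68.3% of all genes, 34.5% higher and 33.9% lower). Their log2 fold changes had a median of 0.04. The highest were Ugt1a6a, a glucuronosyltransferase with 161 counts over the 3D libraries against 2 over the 2D libraries (ratio 113, exact 95% counting interval 30.6 to 937), Gsta3, an alpha-class transferase (361 against 9 counts, ratio 56.1, interval 29.2 to 124), and Sod3, the extracellular superoxide dismutase (283 against 16 counts, ratio 24.7, interval 15.0 to 43.8). Ugt1a6a, Gsta3 and Sod3 passed the filter on low counts only through the spheroid libraries, where they are higher. The same holds for Gsta1, Gsta2 and Gpx3, which are also among the genes called higher. The UGT1A genes share exons, so the counts of Ugt1a6a may include its relatives. The lowest were Me3, a mitochondrial malic enzyme (log2 fold change -2.32), Mthfd2, a mitochondrial enzyme of folate metabolism (-1.97), and Chac1, which degrades glutathione (-1.61).

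By role, the calls of the other pathway genes are given beside 34.5% higher and 33.9% lower over all genes tested. Of the partners, rivals and ligase components of NRF2, 2 of 9 were higher and 5 lower, and of the other enzymes linked to NRF2, 9 of 15 were higher and 1 lower. Other glutathione transferases were higher in 7 and lower in 2 of 12, and glutathione synthesis and breakdown genes were higher in 3 and lower in 3 of 8. Further thioredoxin and peroxiredoxin genes were higher in 7 and lower in 11 of 19, and further NADPH genes higher in 2 and lower in 9 of 14. Further superoxide and peroxide genes were higher in 2 and lower in 2 of 4. The 2 higher ones, Sod3 and Gpx3, passed the filter on low counts only through the spheroid libraries. So did Gsta1, Gsta2 and Gsta3 among the higher transferases, and nothing is read from these counts. With palmitate, 3 of the 81 were higher and none lower (3.70% called, against 2.19% of all genes), namely Chac1 (log2 fold change 0.65, adjusted p = 0.00178), Sesn2, a stress-induced sestrin (0.65, adjusted p = 0.0126), and Mthfd2 (0.32, adjusted p = 0.0273). DESeq2 called 5 of the listed genes higher and 0 lower, with 2.13% of all genes called. By edgeR, 21 of the 81 had an unadjusted p under 0.05, against 17.3% of all genes. Without the shallow library, 21 were called, 15 higher and 6 lower, with 14.9% of all genes called. Over the alternative settings the number called ranged from 1 to 21. Each of the 3 was lower in 3D than in 2D, both with palmitate.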

How the data were processed

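Poly(A) RNA of 4T1 cells was sequenced in 9 libraries. The authors trimmed the reads with fastq-mcf, mapped them to GRCm38/mm10 (HISAT2 2.1.0), summed them over genes (HTSeq-count) and deposited raw counts by gene symbol. The annotation release and strand setting are not given in the sources used here. Counts of 6595514 to 31177756 per library were tested with edgeR 4.0.16 in R 4.3.3: genes with low counts were removed by filterByExpr (12575 of 24421 kept), libraries were scaled by TMM, and all 9 libraries entered 1 quasi-likelihood fit on condition, with Benjamini-Hochberg adjustment over all genes tested and a threshold of 0.05. With 3 against 3 libraries, an exact permutation test of a single gene could not go below 0.1. Intervals on counts cover counting error only.

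The members and the lists of other pathway genes, cell type markers and aryl hydrocarbon receptor genes were chosen with earlier results of these data known. Every member is named; each library's values with error and adjusted p are given for members called with an absolute log2 fold change of at least 1 in 3D against 2D, members called with palmitate (or the 3 with the smallest p), and the regulators, and some other members are shown by library too. Of the other pathway genes, the 3 highest and 3 lowest called in each comparison are named. Exon positions, lengths, overlaps and shared stretches of 50 bases came from GENCODE M21 (GRCm38), promoter sequences from RefSeq (GRCm38.p6). Alternatives were RLE scaling, library size only, no filter, only the groups compared, a replicate block, DESeq2 1.42.0, removal of GC and length trends, the share of Rn45s (ribosomal RNA) as covariate, and leaving out each library. The scripts were tested on simulated data.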

Additional observations from a re-analysis of the deposited data

How the results depend on the processing

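In 3D against 2D, the number of members called ranged from 28 to 32 over all alternatives (30 as reported), and 27 of the 30 kept their call in every alternative that could be fitted, Gpx2 falling below the filter when only the groups compared were used. The exceptions were Ugdh, Gpx4 and Abcc1 (-0.08 after removal of GC and length trends), and Txn1 turned to 0.16 under the same removal. The causes were not tested.

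With palmitate, the members called were 1 (library size only, only the groups compared, replicate block, Rn45s share as covariate), 4 with DESeq2 and 12 with GC and length trends removed, of which 11 were higher and 1 lower. With no filter there were 3, all higher. Leaving out 1 library gave 1 to 15 members called, 1 to 14 higher and 0 to 1 lower. The other pathway genes called were 1 with only the groups compared or the Rn45s share, 2 with the replicate block, 5 with no filter or DESeq2, and 11 with trends removed (10 higher, 1 lower), and leaving out 1 library gave 1 to 21 (1 to 15 higher, 0 to 6 lower). Over all genes, 275 were called as reported, 44 with the Rn45s share, 989 with trends removed, 617 with no filter, 394 with DESeq2, 77 with only the groups compared, 111 with the replicate block, and 71 to 1901 on leaving out 1 library, the highest without replicate 3 of 3D with palmitate. Of the called genes, 62.9% were higher as reported and 46.7% with library size only. The causes were not tested.

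Palmitate changes near 0 turned sign: Gclc to -0.01 (library size only, no filter), Gsta4 to -0.02, Gstp1 to -0.07 and Nfe2l2 to 0.03 (Rn45s share), and Ugdh to 0.00 (RLE), -0.02 (library size only, no filter) or -0.01 (only the groups compared, DESeq2). On leaving out 1 library the ranges were -0.02 to 0.04 for Gclc, -1.12 to 0.04 for Gpx2, -0.02 to 0.14 for Gsta4, 0.00 to 0.22 for Gstp1, -0.05 to 0.01 for Mgst1, -0.01 to 0.09 for Tkt, -0.03 to 0.02 for Ugdh, -0.17 to 0.05 for Nfe2l2 and -0.06 to 0.00 for Keap1.

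Replicate numbers are shared between groups in the labels. Libraries with the same number did not deviate together (correlations of -0.24 to 0.15 over 9 pairs, against -0.17 to 0.28 over 18 pairs with different numbers), and 0 of 9 libraries correlated best with its own number in both other groups, so the numbers were not taken as pairs. With the replicate block, 29 members were called in 3D against 2D and 1 with palmitate.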
